A study of Mus musculus with 6 samples.

Results

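The genes that carry iron into keratinocytes, store it, sense it and export it were examined in Gpx4 knockout and control cells. The set was chosen by name and held 10 genes: Tfrc, Slc11a2 and Steap3 for uptake, Fth1, Ftl1, Ncoa4 and Pcbp1 for storage, Slc40a1 for export, and Ireb2 and Aco1 for sensing. Of these, 9 were measured by probe sets annotated to a single gene, on 24 of the 45101 probe sets of the array. All 3 probe sets that list Ftl1, the ferritin light chain, also list its pseudogene Ftl1-ps2, so Ftl1 was not given a value.

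Messenger RNA was measured on 1-colour Affymetrix arrays in primary keratinocytes, which build the epidermis, taken from newborn mice of C57BL6/FVB background and kept in media with 100 nM sodium selenite. In the knockout, Gpx4, the selenoenzyme that repairs peroxidised membrane lipids, had been deleted by a K14-cre transgene, whose keratin 14 promoter drives expression in keratinocytes of the basal layer, so other cell types of the culture need not be deleted. The cells of each genotype were pooled within a litter, and litters A, B and C each gave 1 control and 1 knockout pool, 3 arrays per group, which the labels call biological replicates. The labels do not give the alleles or the cre status of the controls.

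Iron enters most cells bound to transferrin through the transferrin receptor, is reduced and carried out of the endosome, and is then used, stored in ferritin or exported. Iron regulatory proteins tie these steps together. When iron is scarce they bind iron-responsive elements, hairpins in messenger RNA, which stabilises the transferrin receptor message and blocks translation of the ferritin and ferroportin messages. Arrays read message levels and do not see that block on translation. Ferroptosis, the cell death that Gpx4 opposes, depends on iron-driven oxidation of membrane lipids.

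The sequence around the start of Tfrc is shown because Tfrc had the highest log2 change of the 9 genes, beside that of Pcbp1, which holds the same short motif and had a log2 change of 0.06. Each run covers 250 bases before and 15 after the gene's RefSeq start of lowest genomic coordinate (GRCm38.p6). Tfrc lies on the plus strand at chr16:32608646-32608910 and Pcbp1 on the minus strand at chr6:86526175-86526439. Capitals mark ACGTG, a core of the hypoxia response element, on either strand.
Tfrc: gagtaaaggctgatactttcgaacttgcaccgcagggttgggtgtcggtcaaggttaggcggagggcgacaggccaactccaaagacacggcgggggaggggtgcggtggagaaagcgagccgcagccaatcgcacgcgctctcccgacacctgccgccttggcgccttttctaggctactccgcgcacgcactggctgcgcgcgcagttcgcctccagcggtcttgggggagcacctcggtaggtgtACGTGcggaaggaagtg
Pcbp1: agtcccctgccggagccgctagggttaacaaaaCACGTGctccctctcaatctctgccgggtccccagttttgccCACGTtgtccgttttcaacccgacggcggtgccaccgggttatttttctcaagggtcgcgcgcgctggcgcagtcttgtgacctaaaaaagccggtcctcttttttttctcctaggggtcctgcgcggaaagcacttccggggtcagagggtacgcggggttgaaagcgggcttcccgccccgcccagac
In Tfrc the motif spans the start itself, and in Pcbp1 it lies further upstream, with 2 overlapping matches at the first place. RefSeq windows were matched for 8 of the 10 genes, on 15 starts, and not for Slc40a1 and Slc11a2. ACGTG was found in windows of 3 genes, Tfrc, Pcbp1 and Ncoa4. By window it was in 5 of these 15, and in 17.6% of all 32851 windows of that length. TGACNNNGC, the core of the antioxidant response element to which NRF2 binds, was sought on either strand. It was found in 1 gene, Ncoa4, in 1 of the 15 windows, and in 10.9% of all windows. A match describes the letters of a window and is no evidence of binding.

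Levels below are quantile-normalized intensities, given per array or as mean ± SD over 3 arrays, and each probe set has its own scale. A log2 change is the knockout minus the control with its SE, fitted by limma with a term for litter on log2(intensity + 16), which understates changes of dim probe sets. A gene passed when its Benjamini-Hochberg adjusted p over all 45040 tested probe sets was under 0.05, and the brightest probe set stands for a gene. Deposited array means trimmed at both ends lay between 72.8 and 114.3, with the control of litter C the brightest, and the median array intensity was between 15.9 and 20.4.

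Gpx4 itself was lower in every knockout pool, with levels of 496.9, 550.9 and 535.7 in the control pools (here and below in the order A, B, C) and 212, 259.7 and 216.1 in the knockout pools (log2 change -1.15 ± 0.0912, adjusted p = 0.0206). It did not pass with intensities as deposited (adjusted p = 0.122), without the intensity trend (0.101), or without litter A (0.151) or litter B (0.278). Fits that omitted 1 array and the block gave 0.00367 without the control of litter C and 0.0533 to 0.107 otherwise. In pooled RNA fewer cells of a type and less RNA per cell cannot be told apart. The pools also differed in sex: Eif2s3y, on the Y chromosome, lay between 155.5 and 185.3 in controls and between 0.7 and 4.6 in knockouts, and Xist, expressed from an inactive X, averaged 476 and 1234. Genotype and this difference in sex cannot be told apart, for genes on any chromosome. None of the 10 iron genes lies on the X or Y chromosome, and the location of the other genes of iron and haem handling was not checked. The keratinocyte markers Krt5 (6873 and 6741 on average) and Krt14 (6522 and 6680) were bright in both groups, while others of the 12 keratinocyte markers were lower. At an unadjusted p under 0.05, 4 of the 12 were lower and 0 higher, where 18.1% of genes reached it in either direction. Krt10, a keratin of differentiating layers, passed, falling from 696 ± 92.2 to a mean of 250 (log2 change -1.42 ± 0.0845, adjusted p = 0.00923). It did not pass as deposited (0.0623), without the trend (0.0619), without litter A (0.0953) or without litter B (0.18), nor, without the block, when 4 of the 6 arrays were left out in turn (0.0527 to 0.128). Krt1 (-1.21), Krt15 (-2.49) and Trp63 (-0.43) did not pass (adjusted p = 0.0836, 0.163 and 0.0816). Krt15 read 267.5, 238.6 and 5.6 in controls and 11, 1.8 and 2.2 in knockouts, so the control of litter C stood with the knockouts. Its change was -3.39, -3.84 and -0.25 in litters A, B and C. For Krt1 the control of litter C (350.8) lay below the knockout of litter A (441.6). The part of these differences in the iron genes was not tested.

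Of the 9 measured iron genes none passed limma's threshold, where 0.42% of all probe sets did (0.158% higher and 0.262% lower in the knockout), or 0.616% of genes by their brightest probe set. At an unadjusted p under 0.05 there were 2, Tfrc higher and Slc40a1 lower in the knockout, where 18.1% of genes reached it. For 1 gene, Slc40a1, the control and knockout levels did not overlap, against 20.6% of genes. The sign was the same in all 3 litters for 4 of the 9, 3 higher and 1 lower, against 39.4% of genes and 18.1% (higher) and 18.3% (lower) of probe sets. The median log2 change of the 9 was 0.07, beside 0.00 over all genes, so the set as a whole lay near the middle of the array and the description turns on its uptake receptor and its exporter.

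Tfrc encodes the transferrin receptor, the main entry point of transferrin-bound iron. Its brightest probe set read 294.4, 324.9 and 559.6 in controls and 554.9, 647.8 and 816.9 in knockouts. At these normalized levels the knockout was the higher of the pair in each litter. The groups overlapped narrowly, because the control of litter C lay just above the knockout of litter A. The means were 393 ± 145 and 673 ± 133, a log2 change of 0.79 ± 0.108 (1.73-fold, 95% interval 0.53 to 1.05), which just missed the threshold (adjusted p = 0.0514). The change was 0.88, 0.96 and 0.53 in litters A, B and C.

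**Figure D1:**
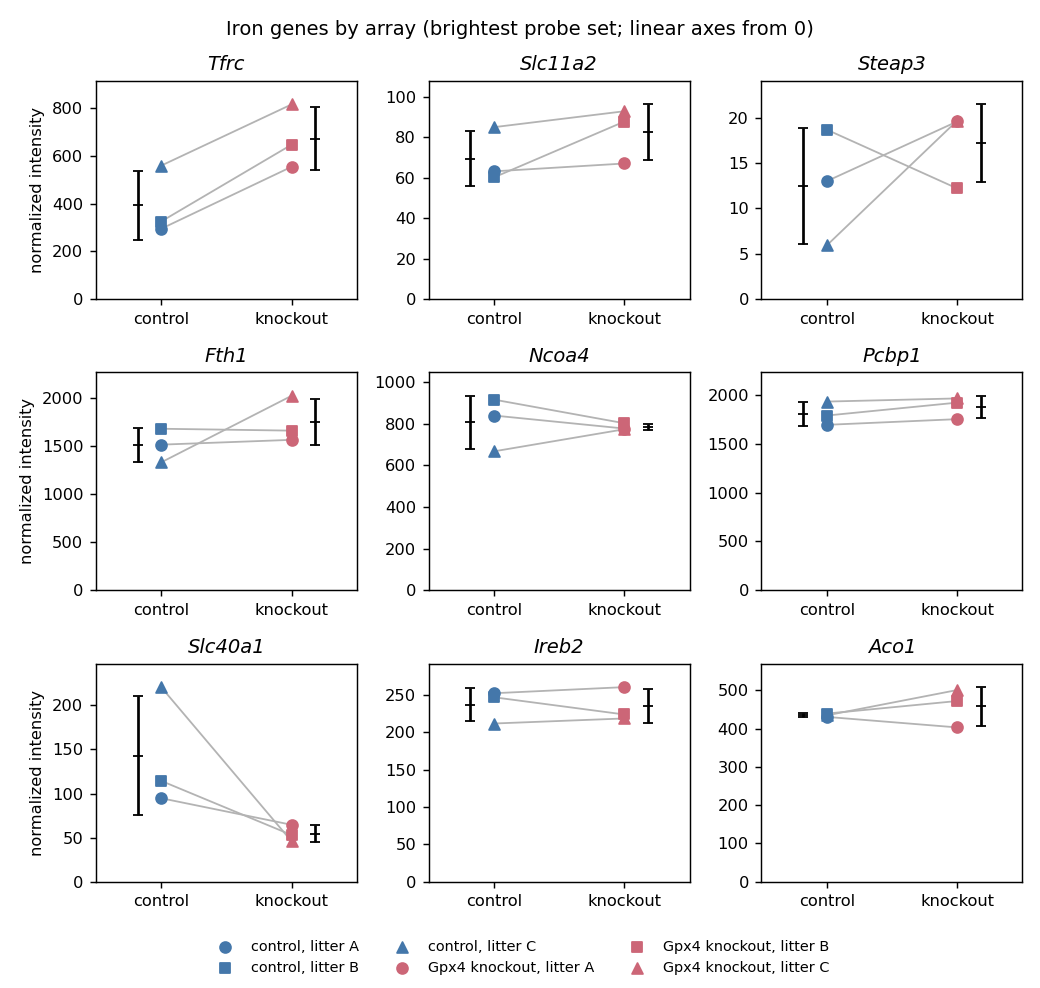
Quantile-normalized intensity (linear axes from 0) of the brightest probe set of 9 iron genes in 3 control and 3 knockout pools; symbols give the litter, grey lines join pools of a litter, and black bars are mean ± SD. Tfrc was higher and Slc40a1 lower in the knockout of each litter, and the groups overlapped for every gene but Slc40a1.

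Whether Tfrc passed depended on the processing. It passed with the arrays shifted to one median (0.80, adjusted p = 6.34e-06), with a linear scaling of the arrays added after the data were seen (0.80, adjusted p = 0.0408), with a pseudocount of 1 (0.82, 0.0253), without the 40% dimmest probe sets (0.79, 0.0155) and, at a log2 change of 0.92, without litter C (0.00235). It also passed at 1.07 without the control of litter C and without the block (0.0134). It did not pass in the other 12 of 18 alternatives. Among these were the deposited scaling (0.61, 0.529), no litter block (0.79, 0.215), no intensity trend (0.131), a pseudocount of 64 (0.0682) and the mean of all Tfrc probe sets (0.117). The rest left out litter A (0.75, 0.316), litter B (0.71, 0.493) or, without the block, each array but the control of litter C (0.337 to 0.513).

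After quantile normalization all 6 Tfrc probe sets had a positive log2 change, between 0.59 and 0.84, and a positive difference in each litter. In the deposited intensities the litter C knockout lay below its control on all 6 (697.8 against 750.8 on the brightest). The trimmed mean of that control array was 114.3, against 73.5 for the knockout, so the sign in litter C depends on the normalization. Among them are 3 array control probe sets that read the 3′ end, the middle and the 5′ end of the transcript, with log2 changes of 0.80 ± 0.167, 0.71 ± 0.19 and 0.76 ± 0.181. Their adjusted p were 0.11, 0.171 and 0.144. The deposited signal at the 3′ end was 1.80 to 1.99 times that at the 5′ end in controls and 1.61 to 1.93 times in knockouts, and for Gapdh this ratio was 0.675 to 0.74 over the 6 arrays. The probe sets share the same RNA and are not replicates of each other.

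**Figure D2:**
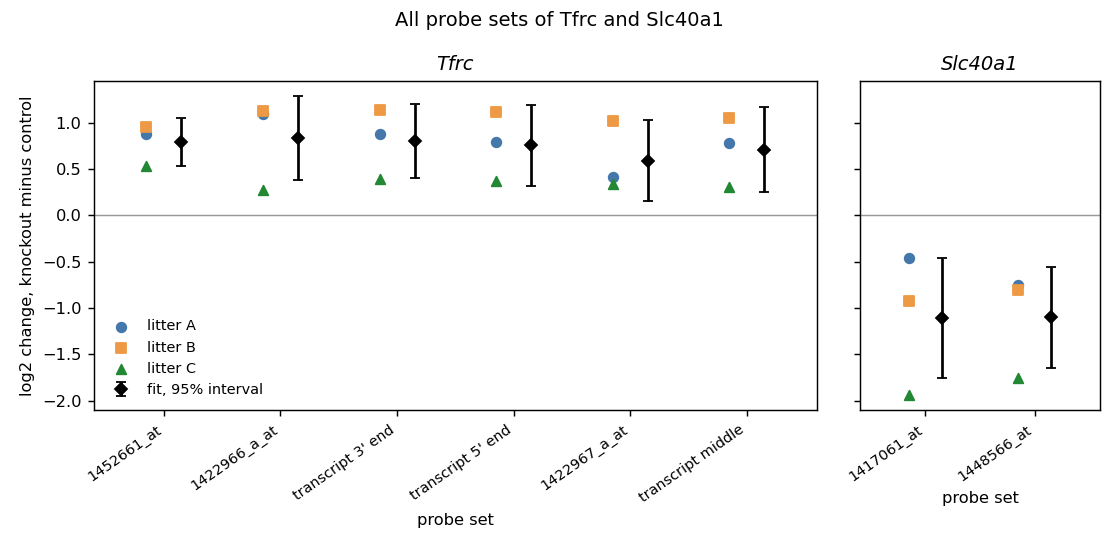
Log2 change, knockout minus control, of every probe set of Tfrc and Slc40a1; coloured symbols are the litters and black diamonds the fitted change with its 95% interval. After quantile normalization every Tfrc point lay above 0 and every Slc40a1 point below 0, with litter C nearest to 0 for Tfrc and furthest from it for Slc40a1.

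Slc11a2 encodes DMT1, the transporter that moves ferrous iron out of the endosome and across the gut wall. Its brightest probe set read 63.2, 60.2 and 85.1 in controls and 67.1, 87.9 and 93 in knockouts (log2 change 0.21 ± 0.137, 95% interval -0.12 to 0.54, adjusted p = 0.549). Its probe sets differed: another one read 31.5, 46.6 and 55.6 in controls and 62.1, 65.6 and 78.4 in knockouts, with no overlap of the groups (0.50 ± 0.144, adjusted p = 0.195), and the remaining 2 had log2 changes of -0.08 and -0.04. Steap3 encodes the endosomal reductase that prepares iron for DMT1 in erythroid cells. It was dim, at 13, 18.7 and 5.9 in controls and 19.6, 12.2 and 19.7 in knockouts (0.24 ± 0.218, adjusted p = 0.681). Its 3 probe sets ran from -0.53 to 0.24 and so differed in direction. The lowest, dimmer still, read 5.7, 11.4 and 13.9 in controls and 0.5, 4.3 and 1.7 in knockouts. Its groups did not overlap (-0.53 ± 0.123, adjusted p = 0.135).

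The measured storage genes were bright on all arrays and had small log2 changes. Fth1, the ferritin heavy chain, which oxidises iron for storage, read 1515.2, 1680.7 and 1330.7 in controls and 1565.2, 1661.1 and 2024.1 in knockouts. The log2 change was 0.21 ± 0.13 (95% interval -0.10 to 0.52, adjusted p = 0.519). Nearly all of it came from litter C (0.60, against 0.05 and -0.02 in litters A and B), and without litter C it was 0.01. As deposited, the litter C pools read 1743.5 in the control and 1796.5 in the knockout, and the fitted change was 0.06, so the litter C difference depends on the normalization. The second Fth1 probe set had a log2 change of 0.09 ± 0.0731.

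Ncoa4 is the cargo receptor that delivers ferritin to lysosomes so that its iron is freed. Its level was 839.9, 916.5 and 667.7 in controls and 777.3, 802.7 and 774 in knockouts, with a log2 change of -0.03 ± 0.101 (95% interval -0.27 to 0.21). Pcbp1, a chaperone that hands iron to ferritin, read 1694.1, 1789.2 and 1932.3 in controls and 1752.3, 1921.6 and 1964.6 in knockouts. Its log2 change of 0.06 ± 0.07 had a 95% interval of -0.11 to 0.23, so for Pcbp1 and Ncoa4 a change as large as that of Tfrc lay outside the interval.

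Slc40a1 encodes ferroportin, the exporter of cellular iron. Its level was 94.7, 114.4 and 220.8 in controls and 64.5, 52.9 and 45.7 in knockouts. Every knockout lay below every control, the controls were spread widely and the knockouts narrowly. The means were 143 ± 67.8 and 54.4 ± 9.49, a log2 change of -1.11 ± 0.27 (95% interval -1.76 to -0.46) that did not pass (adjusted p = 0.148). The second probe set read 70.5, 63.5 and 115.4 in controls and 35.4, 29.8 and 22.9 in knockouts, again without overlap (-1.10 ± 0.227, adjusted p = 0.109). Of all 24 probe sets of the iron genes 3 lay wholly below the controls in the knockout and 1 wholly above, where 9.44% and 8.79% of all probe sets did. Those below were the Slc40a1 probe sets and the dim Steap3 probe set, and a Slc11a2 probe set lay above.

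The size of the Slc40a1 difference rested on litter C, where it was -1.94, against -0.46 in litter A and -0.92 in litter B. Without litter C it was -0.69 (adjusted p = 0.0545). Without the control of litter C and without the block it was -0.78 and passed (0.0377). It also passed with the arrays shifted to one median (-1.11, 1.41e-05), and in none of the other 16 alternatives (0.0541 to 0.555). With a pseudocount of 64 it was -0.76.

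**Figure D3:**
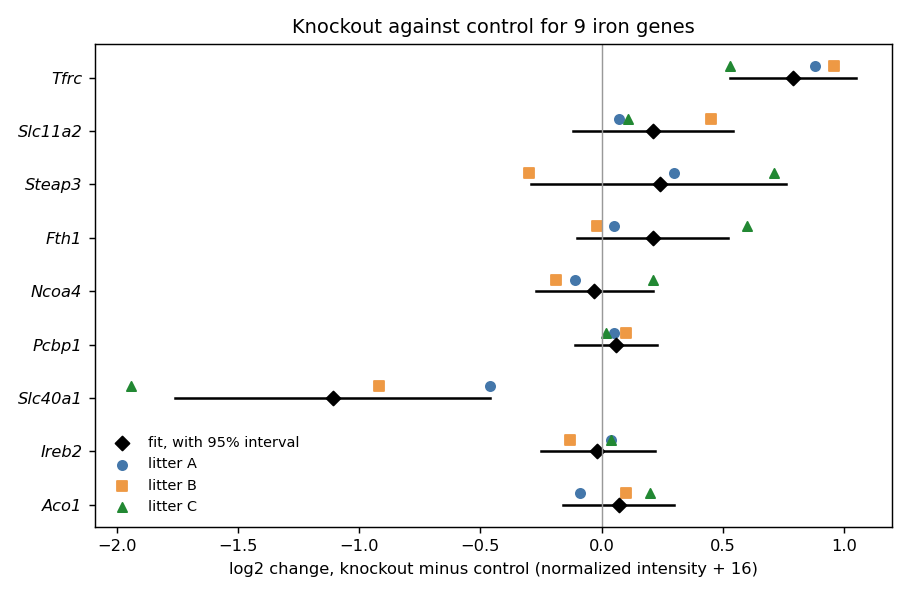
Log2 change, knockout minus control, of 9 iron genes; black diamonds are the fitted values with 95% intervals and coloured symbols are the litters. The intervals of Tfrc and Slc40a1 lie on opposite sides of 0 and the other 7 include 0.

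The messages of both iron regulatory proteins had log2 changes close to 0. Ireb2 encodes IRP2, whose amount is set mainly by degradation of the protein when iron is plentiful. It read 252.6, 247.2 and 212 in controls and 260.8, 224.1 and 218.8 in knockouts (log2 change -0.02 ± 0.0968, 95% interval -0.25 to 0.22). Aco1 encodes IRP1, which serves as cytosolic aconitase while it holds an iron-sulfur cluster. Its brightest probe set, of a design that can also match related sequences, read 430.4, 439 and 434.4 in controls and 402.9, 471.9 and 500.6 in knockouts (0.07 ± 0.094, 95% interval -0.16 to 0.30). The next probe set of Aco1 had a log2 change of -0.11 ± 0.146.

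Beyond the 10 genes, 68 of 76 listed genes of iron and haem handling were measured. Steap4 was the 1 gene that passed, and it fell, where 0.616% of all genes passed. At an unadjusted p under 0.05, 7 were higher and 5 lower, a share close to the 18.1% of all genes, and the median log2 change of the 68 was -0.04. Among 16 genes of other iron transport and systemic iron control, Steap4, a metalloreductase of the Steap3 family, fell from 26.6, 34.8 and 20.6 in controls to 2.3, 3.6 and 2.3 in knockouts (log2 change -1.20 ± 0.153, adjusted p = 0.045). All knockouts lay far below all controls, though the gene was dim throughout. It did not pass with a pseudocount of 64 (adjusted p = 0.0642), without the intensity trend (0.11), without litter A (0.252) or without litter B (0.431). Fits that omitted 1 array and the block gave an adjusted p of 0.0067 without the control of litter C and of 0.13 to 0.218 without each other array. The log2 change was -0.45 with a pseudocount of 64 and -2.91 with 1. Heph, the ferroxidase that works with ferroportin (-0.49 ± 0.151, adjusted p = 0.222), and the metal importer Slc39a8 (-0.37 ± 0.129, 0.267) did not pass. At an unadjusted limma p under 0.05, 3 of the 16 were lower and 1 higher, beside 18.1% of all genes. The higher gene was Steap2 (0.35 ± 0.132, adjusted p = 0.306). Of the 16, 4 lay wholly above and 2 wholly below the controls, where 20.6% of genes had groups that did not overlap. The median log2 change of this list was 0.02.

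Among 10 genes of iron chaperones, iron sensing and control of the Tfrc message, 0 passed in limma and 3 had an unadjusted p under 0.05, beside 18.1% of all genes. Myc, a transcription factor that can activate Tfrc, read 462, 395.9 and 620.6 in controls and 875.6, 789.5 and 825.4 in knockouts (0.76 ± 0.126, adjusted p = 0.0758). All knockouts lay above all controls. Hif1a, the oxygen-regulated transcription factor that binds the hypoxia element, read 1544.2, 1684 and 1365.9 in controls and 1031, 1121 and 1080 in knockouts (-0.50 ± 0.0843, adjusted p = 0.0773), again without overlap. Zc3h12a, the endonuclease Regnase-1 that degrades the Tfrc message, had a log2 change of 0.39 ± 0.138 (adjusted p = 0.271). Fbxl5, the iron-sensing subunit that marks IRP2 for degradation, had one of -0.04 ± 0.133.

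Of the other messages with an iron-responsive element, 3 of 4 were measured. Of these 0 passed, beside 0.616% of all genes, and 1 had an unadjusted p under 0.05 in limma, beside 18.1%. With 3 genes these shares cannot be compared closely. Epas1, which encodes HIF-2α, read 253.4, 261.6 and 65.3 in controls and 80.7, 61.9 and 54.6 in knockouts (-1.17 ± 0.297, adjusted p = 0.156). The control of litter C stood with the knockouts, and the difference there was -0.20, against -1.48 and -1.83 in litters A and B. Cdc42bpa had a log2 change of 0.08 ± 0.148. Alas2, the erythroid enzyme of haem synthesis, was close to 0 in both groups (averages of 1.68 and 0.989).

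Of 19 haem genes 0 passed, and 2 had an unadjusted p under 0.05, a smaller share than the 18.1% of all genes. The median log2 change was -0.16. In all 3 litters 8 of the 19 were lower and 2 higher, where 39.4% of genes had the same sign in all litters. Of the 19, 4 lay wholly below and 1 wholly above the controls, where 20.6% of genes had groups that did not overlap. Cpox, coproporphyrinogen oxidase of haem synthesis, read 352.1, 294 and 234.7 in controls and 510.8, 417.9 and 465.7 in knockouts (0.65 ± 0.117, adjusted p = 0.0844). Hmox1, the inducible haem oxygenase that frees iron from haem, read 65.2, 70.9 and 198 in controls and 267.8, 220.7 and 154.7 in knockouts (0.97 ± 0.382, adjusted p = 0.317). Its knockouts were higher in litters A and B (1.81 and 1.44) and lower in litter C (-0.33). Blvra, the biliverdin reductase that acts after haem oxygenase, had a log2 change of -0.21 ± 0.0883.

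Of 20 genes of mitochondrial iron and iron-sulfur clusters 0 passed, and 2 had an unadjusted p under 0.05, again a smaller share than the 18.1% of all genes. Slc25a37, mitoferrin 1, which brings iron into mitochondria, read 74.1, 88.4 and 116.2 in controls and 136.1, 139 and 151.3 in knockouts (0.55 ± 0.127, adjusted p = 0.131). Hspa9, the mitochondrial chaperone that helps transfer iron-sulfur clusters, averaged 1369 and 1990 (0.55 ± 0.139, adjusted p = 0.154). In both genes all knockouts lay above all controls. Ftmt, mitochondrial ferritin, was dim and had a log2 change of -0.28 ± 0.117.

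**Figure D4:**
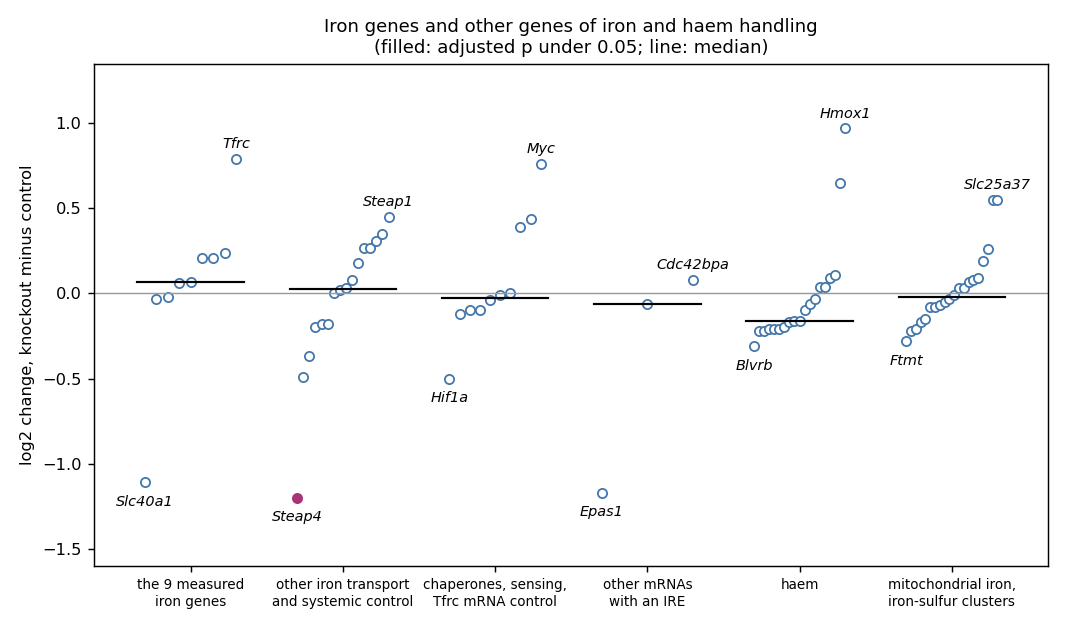
Log2 change, knockout minus control, of the 9 measured iron genes and of 68 further genes of iron and haem handling in 5 lists; each circle is a gene by its brightest probe set, a filled circle passed the threshold, and lines are medians. Steap4 is the 1 filled circle, and the medians lie between -0.16 and 0.07.

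Patterns over the 6 arrays were compared among single-gene probe sets whose mean level was above the median of 17.4, so dim ones were included. The genes most like Tfrc, among 19522 probe sets, were Vopp1, Lyar and Pum3, with Pearson r of 0.9991, 0.998 and 0.9975. Their own log2 changes were 0.29, 0.47 and 0.33. Those most like Slc40a1 were Ppp2r3d, Smad1 and Dsc1, with r of 0.9987, 0.9899 and 0.9884 and log2 changes of -0.14, -0.33 and -1.07. Only 6 arrays stand behind each r, they share 3 litters, and 449 probe sets exceeded an r of 0.95 with Tfrc and 57 with Slc40a1.

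Markers of other skin cells were read beside these values. The summed level of 8 melanocyte markers was 4597.3 to 4766.8 in controls and 6396.9 to 7000.2 in knockouts, with Tyrp1 (0.69 ± 0.0785, adjusted p = 0.038) and Mlana (1.11 ± 0.135, 0.043) among the genes that rose. Neither of these passed as deposited (0.54 and 0.92, adjusted p = 0.539 and 0.209), with a pseudocount of 64 (0.0528 and 0.0617), without the trend (0.121 and 0.118), without litter A (0.226 and 0.172) or without litter B (0.434 and 0.408). The sum of 10 fibroblast markers was 320.9, 288.6 and 665.4 in controls and 474.9, 559.2 and 677 in knockouts. The control of litter C was the highest control, as it was for Tfrc and Slc40a1. In each litter the sum was higher in the knockout, as Tfrc was, while Slc40a1 was lower. The fibroblast markers did not all move one way: at an unadjusted limma p under 0.05, 3 of the 10 were higher and 1 lower, where 18.1% of genes reached it. The part of either cell type in the iron genes was not tested. Of 11 macrophage and other leukocyte markers 6 were under 20 on every array, and the sum was 140.3 to 182.8 in controls and 149.9 to 198.6 in knockouts. All 6 measured erythroid and all 5 endothelial markers were under 20 on every array, so defining genes of erythroid cells, which are rich in transferrin receptor, were near 0.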

How the data were processed

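Each of the 6 arrays has a column of deposited linear intensities, 1 per probe set. Trizol extraction and biotin labelling by in vitro transcription are recorded per the labels. Background correction, probe summary and scaling are not given in the sources used here.

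The 61 array control probe sets were left out except the 3 annotated to Tfrc, which left 45040. After quantile normalization, log2(intensity + 16) was fitted with limma 3.58.1 (R 4.3.3; lmFit, then eBayes with trend). A block for litter was included because the submitters compared pools of one litter. Deviations from group means within litters A, B and C correlated with r = 0.175, 0.0473 and 0.208. Two-sided p-values were adjusted by Benjamini-Hochberg over all probe sets. Intervals come from the same fit. Symbols came from the 2016 platform annotation: 34948 probe sets had 1 symbol, 932 several, and 9160 were not listed. On simulated arrays with 200 of 45040 probe sets changed, all brighter than the median, 16.6% of 2-fold and 64.2% of 4-fold changes were found.

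The members and lists were chosen with earlier results of these data known. All members were named, with up to 3 genes of smallest p from each further list and the 3 most like Tfrc and Slc40a1 by Pearson r. Fbxl5, Steap2, Cdc42bpa, Alas2, Krt1, Krt5, Krt10, Krt14, Krt15, Trp63, Tyrp1 and Mlana were named beside these after their values were seen. Alternatives covered scaling, block, pseudocount, filter, trend, probe-set choice and omitted arrays.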

Additional observations from a re-analysis of the deposited data

How the results depend on the processing

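Tfrc stayed higher (0.61 to 1.07) and Slc40a1 lower (-1.43 to -0.69) in the knockout under all 18 alternatives. No member passed in the reported fit. The count was 1 with linear scaling, a pseudocount of 1 or without the 40% dimmest probe sets, 2 after a shift of the arrays to one median, and 0 to 2 with a litter or array left out. That shift moved the median of all probe sets to 0.124, and relative to it Tfrc was 0.67 and Slc40a1 -1.23. Without the litter block no member passed, and 135 probe sets passed against 189. Over all probe sets 35 passed as deposited (3 higher, 32 lower; 8.57% higher against 37.6%), 2405 with the median shift (1271 and 1134; 52.8% higher), 601 with a pseudocount of 1, 59 with 64, 1131 without the dimmest, 6 without the trend, 291 with linear scaling, and 0 to 2790 with a litter or array left out (limma gave 0 without litter B, with 3702 at an unadjusted p under 0.05). The cause was not tested. Small changes turned sign: as deposited Aco1 was -0.12 and Pcbp1 -0.08, and with the mean of a gene's probe sets Aco1 was -0.01 and Steap3 -0.09. As deposited the median of all probe sets was itself -0.066, and relative to it Aco1 was -0.05 and Pcbp1 -0.01. With a litter or array left out Ireb2 ran from -0.09 to 0.04, Ncoa4 from -0.16 to 0.07 and Steap3 from 0.00 to 0.50. Dim signal and the number of arrays limit what can be said of Steap3, Steap4, Ftmt and Alas2.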
